A study of Mus musculus with 16 samples.

Results

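The protein entry and N-glycosylation machinery of the endoplasmic reticulum (ER) was examined in sorted epithelial cells of the mouse small intestine. The 33 genes were given as a list of names. They comprise 6 genes of signal recognition, 11 of the translocon, 5 of the signal peptidase complex, 7 of oligosaccharyltransferase (OST) and 4 of glycan assembly and trimming, among 45513 genes in the count files. The libraries came from 8 mice, with 1 tdTom+ and 1 tdTom- library from each, so that there were 8 libraries per group. All mice carried Atoh1(WT)CreERT2, in which the tamoxifen-inducible recombinase CreERT2 is made from the locus of the secretory regulator Atoh1, together with the red fluorescent reporter R26RtdTom. According to the methods of the study, its lines were homozygous for the Atoh1 allele and the adult mice used were of both sexes, on a C57BL/6 background. Each mouse received tamoxifen on 3 days in a row, 1 mg each time, per the labels and the methods of the study for this comparison of wild-type fractions. Both fractions thus share the alleles and the tamoxifen, and differ in whether a live EpCAM+ epithelial cell had switched on the reporter, which then stays on in that cell and its progeny. Reporter-positive cells are a mixture of secretory lineages and not 1 cell type.

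Most proteins bound for secretion, and some bound for a membrane, begin with a signal peptide. The signal recognition particle (SRP) binds this peptide as it leaves the ribosome and docks at the SRP receptor, and the SEC61 channel then takes the chain across the ER membrane, aided by the TRAP complex, TRAM1, SEC62 and SEC63. Signal peptidase removes the signal peptide, OST moves a preassembled glycan from a dolichol lipid onto asparagines, and glucosidases trim that glycan. Mucus-producing goblet cells and antimicrobial Paneth cells are the professional secretory cells of the intestinal epithelium, and both load this pathway heavily.

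Total counts ranged from 17116405 to 25323567 per library. Atoh1, read as the check of the sort, ranged from 0.502 to 1.25 CPM (each count scaled to a common library size, with factors from the trimmed mean of M-values) in tdTom- libraries and from 47.9 to 80.0 CPM in tdTom+ libraries. The summed level of 8 goblet markers lay between 951 and 1509 CPM in tdTom- and between 127900 and 263900 CPM in tdTom+ libraries, and that of 8 Paneth markers between 405 and 594 CPM and between 52620 and 139300 CPM. Enteroendocrine markers, summed over 8 genes, ranged from 596 to 1083 CPM in tdTom- and from 2052 to 3151 CPM in tdTom+ libraries. Of 8 tuft markers 7 were tested and all 7 were higher in tdTom+ cells, with sums of 16.5 to 76.9 CPM in tdTom- and 81.6 to 286 CPM in tdTom+ libraries. The sum of 8 absorptive markers went the other way, from 14530 to 38300 CPM in tdTom- to 1561 to 6014 CPM in tdTom+ libraries. Plasma cells, another cell type rich in ER, left a trace in both fractions, led by Igha, and 5 of the 6 plasma cell markers tested were lower in tdTom+ libraries (sums of 424 to 3695 CPM in tdTom- and 15.9 to 453 CPM in tdTom+). Of the 8 immune markers 1 was higher and 5 were lower, and their sum of 1363 to 3463 CPM in tdTom+ libraries (22.8 to 151 CPM in tdTom-) was led by the higher one, Lyz2. Whether reads of the lysozyme gene Lyz1, the most abundant Paneth marker (mean 28110 CPM in tdTom+ libraries), were counted for its paralog Lyz2 was not tested. Stromal markers summed to at most 4.64 CPM and pancreatic acinar markers to at most 6.04 CPM in any library, with 4 of the 8 pancreatic genes (Prss2, Cela2a, Cpa1 and Try4) at 0 in all libraries. The part of each of these shifts in the results given here was not tested.

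Most of the ER entry genes were higher in tdTom+ cells, by modest amounts. All 33 genes passed the filter on low counts, and 29 (87.9%) were higher, 1 was lower and 3 did not pass an adjusted p of 0.01 (quasi-likelihood F-test of edgeR with the mouse as a block, adjusted over 15323 genes). Among all genes tested 25.8% were higher and 30.0% lower by the same rule. The median log2 fold change (tdTom+ over tdTom-) of the 33 genes was 0.62, and that of all genes was 0.02. For 24 of the 33 genes every tdTom+ library exceeded every tdTom- library, against 14.6% of all genes, and for 1 gene, Tram2, every tdTom+ library lay below every tdTom- library, against 17.0% of all genes. Within mice, 28 of the 33 genes were higher in tdTom+ cells in 8 of 8 mice. The median of the 33 genes stood at percentile 83.3 of the log2 fold changes of all genes tested. When a log2 fold change of at least 1 was also required, 4 genes (12.1%) were higher, close to the 11.4% of all genes. The median log2 fold change was 0.65 over the 29 genes that were higher and 0.86 over all genes that were higher. Because these are bulk libraries, a larger share of cells that use the pathway and more RNA per cell cannot be told apart.

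**Figure D1:**
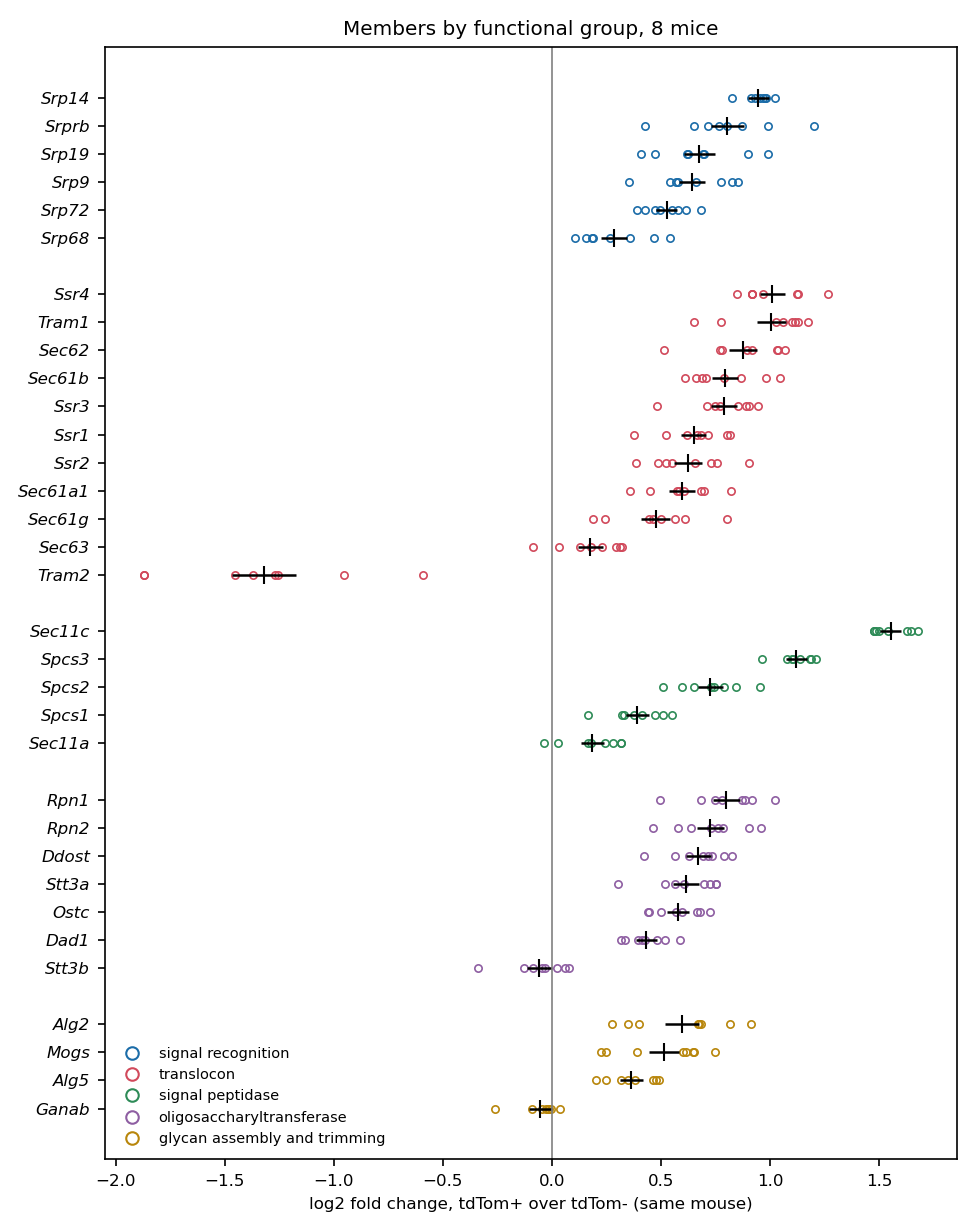
Log2 ratio of tdTom+ over tdTom- for each of the 33 genes (rows, by functional group) in each of the 8 mice (points), from normalised counts with a pseudocount of 0.5 counts. Points of 28 genes lie above 0 in 8 of 8 mice, Tram2 lies below 0 in 8 of 8, and Stt3b, Ganab, Sec63 and Sec11a have mice on both sides of 0.

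The summed share of the transcriptome moved in the same direction. Of all counts, the 33 genes held 0.340% ± 0.025 in the tdTom- group and 0.487% ± 0.015 in the tdTom+ group (mean ± SD, n = 8 each), and the share was higher in tdTom+ cells in 8 of 8 mice. The lowest tdTom+ library (0.462%) lay above the highest tdTom- library (0.380%). The 10 genes most counted over all libraries together took 18.8% to 26.5% of a tdTom+ library and 5.30% to 16.4% of a tdTom- library. Without these genes the shares were 0.385% ± 0.034 (tdTom-) and 0.633% ± 0.032 (tdTom+).

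The signal recognition genes all rose. All 6 were higher in tdTom+ cells, beside 25.8% of all genes. Their median log2 fold change was 0.66, with medians in single mice from 0.49 to 0.92. Srp14, which with Srp9 forms the Alu domain heterodimer that slows translation until the ribosome has docked, changed most. Its level ranged from 16.2 to 18.8 CPM (median 17.9) in tdTom- and from 31.6 to 36.6 CPM (median 34.3) in tdTom+ libraries. The groups were far apart and each was tight, with means of 17.7 ± 0.91 and 34.2 ± 1.6 CPM (SD, n = 8). The log2 fold change was 0.95 ± 0.05 (SE, adjusted p = 1e-09), and in single mice it lay between 0.83 and 1.02. Its partner Srp9 rose by less, with a log2 fold change of 0.64 ± 0.06, from a median of 36.7 CPM to 59.7 CPM without overlap of the groups.

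Srp68 and Srp72 encode the paired proteins of the SRP core, and Srp68 changed least of the group. It ranged from 59.3 to 73.6 CPM (median 63.7) in tdTom- and from 66.7 to 91.3 CPM (median 78.1) in tdTom+ libraries. The groups overlapped, although the tdTom+ library was the higher one in 8 of 8 mice, and the log2 fold change was 0.28 ± 0.06 (SE, adjusted p = 7.5e-04). Srp72 rose from a median of 70.9 CPM to 106.1 CPM (log2 fold change 0.53 ± 0.05), with the groups apart. Srp19, which helps SRP RNA take up its SRP54 subunit, was the least abundant of the 6 per kilobase of exon, at 3.77 CPM per kilobase in tdTom- and 6.03 in tdTom+ cells. Its log2 fold change was 0.68 ± 0.07. Srprb, the membrane-anchored subunit of the SRP receptor, ranged from 18.7 to 22.7 CPM in tdTom- and from 28.3 to 43.0 CPM in tdTom+ libraries and had a log2 fold change of 0.80 ± 0.08. An unnamed gene model on the same strand, Gm20425, shares 20.7% of the exon bases of Srprb. Reads on shared bases are counted for neither gene, so the level of Srprb may be understated. The 0 CPM of Gm20425 in both groups therefore does not show that the overlap had no effect. The partner subunit of Srprb, Srpr, is not among the 33 genes and is described with the rest of the pathway.

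Of the 11 translocon genes 9 rose, 1 fell and 1 did not pass, beside 25.8% of all genes higher and 30.0% lower. Their median log2 fold change was 0.65. The groups did not overlap for 10 of the 11, with Tram2 the 1 that lay below. Among all genes, 14.6% had every tdTom+ library above every tdTom- library, and 17.0% had every one below. All 3 subunits of the SEC61 channel were higher. Sec61a1, the pore-forming subunit, ranged from 256.7 to 316.8 CPM (median 293.3) in tdTom- and from 369.9 to 492.6 CPM (median 455.8) in tdTom+ libraries. Every tdTom+ library was thus above every tdTom- library, and the log2 fold change was 0.60 ± 0.06 (SE, adjusted p = 1.2e-06). The small subunits Sec61b and Sec61g had log2 fold changes of 0.79 ± 0.06 and 0.48 ± 0.07. Both have near-identical copies elsewhere in the genome, and 17.4% of the 50-base stretches of Sec61b and 14.8% of those of Sec61g also occur in other genes. The copies of Sec61b summed to 9.28 CPM (tdTom-) and 16.5 CPM (tdTom+) and those of Sec61g to 14.4 and 20.3 CPM, so the exact levels of these genes are uncertain.

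Sec61b shares its upstream region with another of the 33 genes. It lies on the plus strand of chromosome 4 (47474658 to 47483242, GRCm38), and Alg2, a mannosyltransferase gene of glycan assembly, starts 324 bases away on the minus strand (47465067 to 47474333). Both genes were higher in tdTom+ cells, in 8 of 8 mice each. The sequence that lies before Sec61b toward Alg2 is shown because genes that rose lie on both sides of it (whether they share a promoter was not tested; RefSeq, GRCm38.p6, chr4:47474411-47474657, plus strand, 247 bases, with no part in capitals because neither CCAAT nor CCACG occurs in it on either strand):
Sec61b: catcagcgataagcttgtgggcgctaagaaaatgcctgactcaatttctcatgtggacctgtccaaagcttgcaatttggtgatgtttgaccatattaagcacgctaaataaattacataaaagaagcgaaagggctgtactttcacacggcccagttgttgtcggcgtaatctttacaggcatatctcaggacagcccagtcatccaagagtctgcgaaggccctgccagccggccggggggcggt

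The 4 subunits of TRAP, a complex that sits beside SEC61 and helps weak signal peptides to open the channel, all rose. Their median log2 fold change was 0.72, with no overlap of the groups for any of them. Of all genes, 25.8% were higher and 14.6% had every tdTom+ library above every tdTom- library. Ssr4 had the largest rise of the translocon genes. It ranged from 54.5 to 74.7 CPM (median 64.8) in tdTom- and from 113.5 to 139.5 CPM (median 129.7) in tdTom+ libraries. The lowest tdTom+ library, that of mouse 6, stood below the other 7 and still well above all tdTom- libraries. The log2 fold change was 1.01 ± 0.06 (SE, adjusted p = 2.4e-09). Ssr3, Ssr1 and Ssr2 followed with 0.79 ± 0.06, 0.65 ± 0.06 and 0.62 ± 0.06.

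SEC62 and SEC63 help some proteins enter the channel after translation, and the pair parted here. Sec62 rose from a median of 54.6 CPM to 101.0 CPM, a log2 fold change of 0.88 ± 0.06 and every tdTom+ library above every tdTom- library. Sec63 ranged from 91.3 to 106.9 CPM (median 97.6) in tdTom- and from 92.9 to 119.4 CPM (median 111.5) in tdTom+ libraries. The groups overlapped and 7 of 8 mice had the higher value in tdTom+ cells, but the log2 fold change of 0.18 ± 0.06 did not pass (adjusted p = 0.0146). Sec63 did pass with at least 10 counts required in every library (0.30) and in DESeq2 with no replicate block (0.19). It also passed without mouse 3 (0.29) or mouse 5 (0.21). Adjusted p in these settings ran from 4.29e-04 to 0.00677 (edgeR or DESeq2). With at least 10 counts and without mouse 3, the median of all genes moved too, from 0.02 to 0.12.

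The TRAM genes moved in opposite directions. Tram1 encodes a membrane protein that contacts nascent chains beside SEC61. It ranged from 114.0 to 138.0 CPM (median 124.2) in tdTom- and from 185.5 to 281.8 CPM (median 268.9) in tdTom+ libraries. The groups were apart, and the log2 fold change was 1.01 ± 0.07 (SE, adjusted p = 1.4e-08). Its paralog Tram2 was much less abundant, at 2.70 to 5.42 CPM (median 3.86) in tdTom- and 1.02 to 2.13 CPM (median 1.63) in tdTom+ libraries. Every tdTom+ library of Tram2 was below every tdTom- library, and the log2 fold change was -1.32 ± 0.15 (SE, adjusted p = 2.8e-06). Tram2 had as few as 16 counts in a library, whereas no other of the 33 genes had fewer than 261, so its values carry the largest counting error.

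Signal peptidase had the highest median log2 fold change of the 5 groups, 0.73. All 5 genes were higher, beside 25.8% of all genes. Sec11c and Sec11a encode alternative catalytic subunits, each of which forms its own version of the complex with the shared subunits SPCS1, SPCS2 and SPCS3. Sec11c ranged from 27.1 to 37.5 CPM (median 30.5) in tdTom- and from 80.4 to 104.2 CPM (median 91.5) in tdTom+ libraries. The lowest tdTom+ library held more than double the level of the highest tdTom- library. Its log2 fold change of 1.55 ± 0.05 (SE, adjusted p = 7.5e-12) was the largest of the 33 genes and was close to the same in every mouse, from 1.48 to 1.68. Sec11a was at 47.1 to 57.2 CPM (median 51.0) in tdTom- and at 51.6 to 61.1 CPM (median 58.5) in tdTom+ libraries. The groups overlapped, 7 of 8 mice were higher in tdTom+ cells, and the log2 fold change of 0.19 ± 0.05 was barely past the threshold (SE, adjusted p = 0.00803). This call for Sec11a was lost when libraries were scaled by total counts only (0.12, adjusted p = 0.09), with no filter on low counts (adjusted p = 0.028) and without mouse 1, 2, 5, 6 or 8 (adjusted p from 0.0149 to 0.0287). Part of Sec11a (3.53% of its exon bases) also overlaps Nmb in the annotation.

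The shared subunits did not rise evenly. Spcs3, which is required for cleavage, ranged from 52.0 to 69.7 CPM (median 61.0) in tdTom- and from 101.5 to 149.7 CPM (median 137.7) in tdTom+ libraries. The groups did not overlap and the log2 fold change was 1.12 ± 0.05 (SE, adjusted p = 1.3e-10). Spcs2 rose by 0.73 ± 0.06 and Spcs1 by 0.39 ± 0.05 on the log2 scale, both without overlap of the groups. A processed copy of Spcs2 shares 3.28% of its 50-base stretches and itself went from 2.66 CPM (tdTom-) to 4.37 CPM (tdTom+).

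Of the 7 OST genes 6 rose and 1 did not pass, beside 25.8% of all genes higher. Their median log2 fold change was 0.61. The group includes both catalytic subunits, Stt3a and Stt3b, and the shared subunits Rpn1, Rpn2, Ddost and Dad1. Rpn1, the subunit that presents some substrates to the enzyme, ranged from 187.4 to 301.1 CPM (median 217.0) in tdTom- and from 340.3 to 424.8 CPM (median 394.1) in tdTom+ libraries. The highest tdTom- value, from mouse 7, remained below all tdTom+ values. Its log2 fold change of 0.80 ± 0.06 (SE, adjusted p = 8.4e-08) was the largest of the OST genes. Rpn2, Ddost and Dad1 rose by 0.73 ± 0.06, 0.67 ± 0.06 and 0.43 ± 0.05. Ddost was the most abundant of the 33 genes per kilobase of exon, at 79.8 CPM per kilobase in tdTom- and 126.3 in tdTom+ cells.

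The catalytic subunits differed. STT3A works at the translocon on chains that are still being made, with OSTC as an adaptor subunit, whereas STT3B can glycosylate sites that were skipped. Stt3a ranged from 173.6 to 205.9 CPM (median 193.6) in tdTom- and from 232.8 to 335.0 CPM (median 300.0) in tdTom+ libraries. All tdTom+ libraries were above all tdTom- libraries, and the log2 fold change was 0.61 ± 0.06 (SE, adjusted p = 8.5e-07). Ostc rose to a like extent, by 0.58 ± 0.05, from a median of 86.5 CPM to 129.3 CPM. Stt3b ranged from 214.1 to 298.1 CPM (median 245.5) in tdTom- and from 226.2 to 259.1 CPM (median 234.9) in tdTom+ libraries. Its groups overlapped throughout, 3 of 8 mice were higher and 5 lower in tdTom+ cells, and the log2 fold change was -0.06 ± 0.06 (SE, adjusted p = 0.393). The sign of this small value for Stt3b turned positive with at least 10 counts required in every library (0.06) and without mouse 3 (0.03).

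The upstream regions of Stt3a and Stt3b are shown because the catalytic pair parted. Both genes lie on the minus strand of chromosome 9, at 36729344 to 36767679 and 115242607 to 115310421 (GRCm38). The sequences are those of RefSeq (GRCm38.p6), without bases that either annotation places inside the gene, and run 5′ to 3′ on the minus strand from chr9:36767680-36767872 (193 bases) and chr9:115310469-115310718 (250 bases). Capitals mark CCAAT or CCACG on either strand, the parts of the ER stress response element:
Stt3a: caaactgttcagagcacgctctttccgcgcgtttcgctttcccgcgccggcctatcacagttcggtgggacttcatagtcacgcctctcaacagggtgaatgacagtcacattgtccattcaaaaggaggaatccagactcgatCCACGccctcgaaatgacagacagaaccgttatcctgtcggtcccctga
Stt3b: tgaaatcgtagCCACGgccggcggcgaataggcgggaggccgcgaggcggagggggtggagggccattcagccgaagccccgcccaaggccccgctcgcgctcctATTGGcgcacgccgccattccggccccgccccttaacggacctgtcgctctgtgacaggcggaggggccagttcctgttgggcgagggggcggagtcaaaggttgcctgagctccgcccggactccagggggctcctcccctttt

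Stt3a and Stt3b did not differ in these letters. Over the window from 250 bases before to 50 after the start, each held 1 CCAAT and 1 CCACG on either strand, the CCAAT of Stt3a being outside the stretch printed. The joined motifs of the unfolded protein response were searched on both strands in the RefSeq promoters of 24 of the 33 genes that are listed. Genes without a listed promoter were Sec11c, Spcs3 and Tram1, each with a log2 fold change above 1, and Sec61a1, Ssr2, Ostc, Srp19, Srp68 and Alg2. ERSE (CCAAT, any 9 bases, CCACG) was in 0 of 24 and in 0.137% of 27025 genes with a promoter, ERSE-II (ATTGG, any 1 base, CCACG) was in 0 of 24 and in 0.0444%, and the XBP1 core TGACGTGG was in 0 of 24 and in 0.714%. With shares this low among all genes, 0 of 24 says little about the 33 genes. The single parts were then counted, a choice made after that result. CCAAT was in the promoters of 12 of the 24 genes and of 41.1% of all genes, and CCACG was in 16 of the 24 (66.7%) and in 35.5% of all genes. A match of letters is a description and not a binding site.

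Glycan assembly and trimming had the smallest median log2 fold change of the 5 groups, 0.44. Of its 4 genes 3 were higher and 1 did not pass, beside 25.8% of all genes higher. The groups overlapped for all 4. Alg2, which adds mannose to the growing lipid-linked glycan, ranged from 14.3 to 21.4 CPM (median 16.3) in tdTom- and from 18.6 to 28.2 CPM (median 26.0) in tdTom+ libraries. Only part of the tdTom+ range was above the tdTom- range, although Alg2 was higher in 8 of 8 mice, and its log2 fold change was 0.60 ± 0.08 (SE, adjusted p = 1.3e-05). Alg5, which makes the glucose donor of the pathway, rose by 0.36 ± 0.05. Mogs encodes glucosidase I, which removes the first glucose after transfer, and rose by 0.51 ± 0.07.

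Ganab, the catalytic subunit of glucosidase II, which removes the remaining glucoses, did not pass. It ranged from 269.5 to 293.9 CPM (median 276.9) in tdTom- and from 243.7 to 288.2 CPM (median 271.1) in tdTom+ libraries. The groups overlapped, 7 of 8 mice were lower in tdTom+ cells, and the log2 fold change was -0.05 ± 0.05 (SE, adjusted p = 0.385). As for Stt3b, the sign for Ganab turned positive with at least 10 counts in every library (0.07) and without mouse 3 (0.05). Its regulatory subunit Prkcsh, from the wider pathway, had means of 161.0 ± 7.1 CPM (tdTom-) and 153.7 ± 9.1 CPM (tdTom+, SD, n = 8 each, log2 fold change -0.07 ± 0.05, adjusted p = 0.259).

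**Figure D2:**
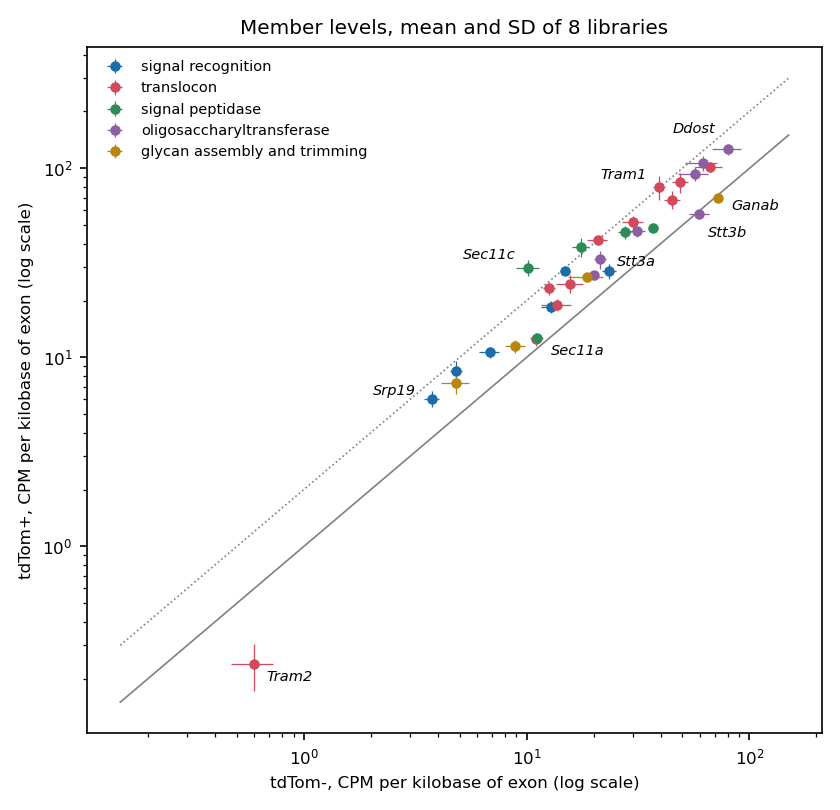
Mean level of each of the 33 genes in tdTom- (x axis) and tdTom+ (y axis) libraries, in CPM per kilobase of annotated exon on log scales, with SD of 8 libraries as bars and colours for the 5 functional groups. The solid line marks equal levels and the dotted line a doubling. Sec11c and Spcs3 lie above the dotted line, and Ssr4 and Tram1 lie only just above it. Stt3b and Ganab lie at the solid line, and Tram2 lies far below the other genes.

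The functional groups were set side by side within each mouse. The median log2 ratio of the glycan assembly and trimming genes was below that of each of the other 4 groups in 8 of 8 mice, and ran from 0.24 to 0.56. The signal peptidase median was above those of signal recognition and of OST in 8 of 8 mice and above that of the translocon in 6 of 8. The signal recognition and translocon medians (0.49 to 0.92 and 0.52 to 0.89) changed places between mice, with the translocon higher in 5 of 8. The OST median ran from 0.44 to 0.75 and was below that of the translocon in 6 of 8 mice. These orders rest on medians of 4 to 11 genes, are given as a description with no test, and for the translocon the mean over genes, which includes Tram2, was 0.52.

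Mice differed in the size of the shift. The median over the 33 genes ran from 0.46 in mouse 7 and 0.51 in mouse 5 to 0.82 in mouse 3. Mouse 5 had the lowest tdTom+ value for 19 of the 33 genes, and mouse 7 had the highest tdTom- value for 19 of the 33. In each single mouse all 5 group medians were above 0.

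**Figure D3:**
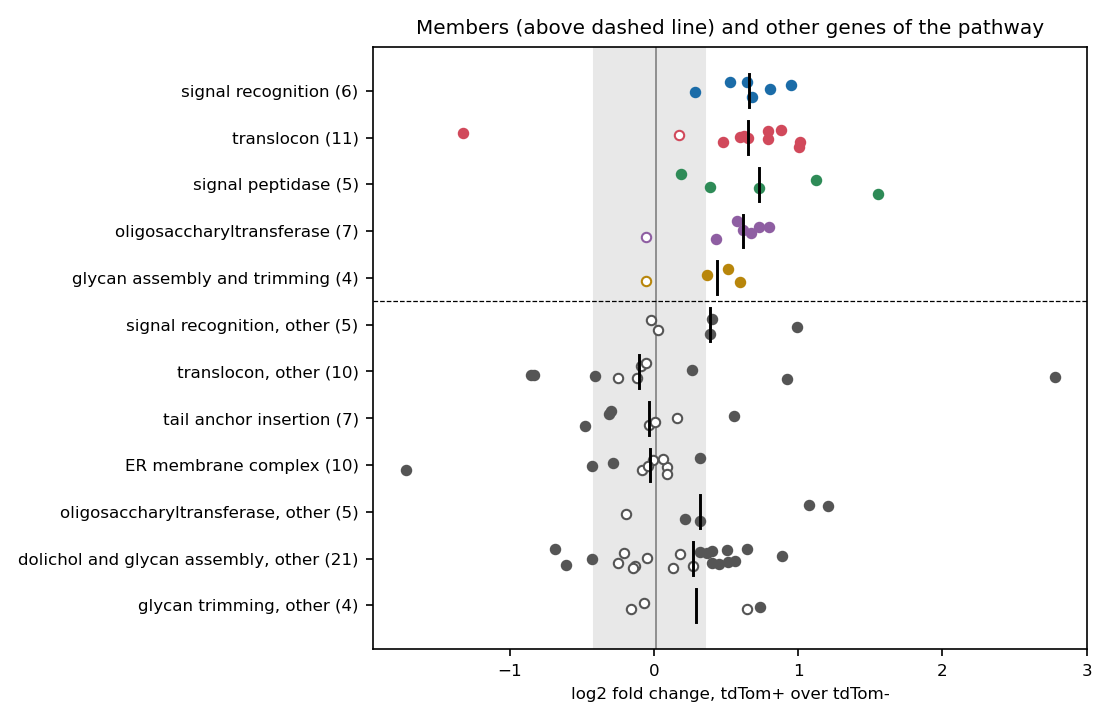
Log2 fold change of each gene (points), tdTom+ over tdTom-, for the functional groups of the 33 genes and for the rest of the pathway. Filled points passed an adjusted p of 0.01, black ticks are group medians, and the grey band spans the lower to the upper quartile of all 15323 genes (-0.41 to 0.35). The medians of the 5 groups of the 33 genes lie above the band. In the rest of the pathway, the median of signal recognition (0.39) lies above the band and those of all other groups lie inside it.

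The 3 paralog pairs were compared within libraries, where the ratio of a pair does not depend on scaling between libraries. The log2 ratio of Stt3a over Stt3b was -0.38 ± 0.09 in the tdTom- fraction and 0.29 ± 0.12 in the tdTom+ fraction (SD, n = 8). The shift of 0.67 ± 0.15 (SD over mice) was positive in 8 of 8 mice and turned the pair from fewer to more Stt3a than Stt3b counts. Per kilobase of exon Stt3a stayed below Stt3b, at a ratio of 0.361 ± 0.023 in tdTom- and 0.577 ± 0.047 in tdTom+ libraries. These lengths sum all annotated exons, so a level per kilobase is uncertain where a gene has long exons that its main transcript does not use.

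The ratio of Sec11c over Sec11a went from -0.71 ± 0.15 to 0.66 ± 0.19 on the log2 scale. The shift was 1.37 ± 0.12 (SD over 8 mice), and per kilobase the ratio went from 0.918 ± 0.091 to 2.38 ± 0.34. Tram1 exceeded Tram2 in both fractions, with log2 ratios of 4.98 ± 0.35 in tdTom- and 7.32 ± 0.56 in tdTom+ libraries and a shift of 2.34 ± 0.48. Each of the 3 shifts had the same direction in 8 of 8 mice, and the exact two-sided sign-flip test gave p = 0.00781 for each, the smallest that its 256 sign patterns allow (adjusted over the 3 pairs, 0.00781).

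**Figure D4:**
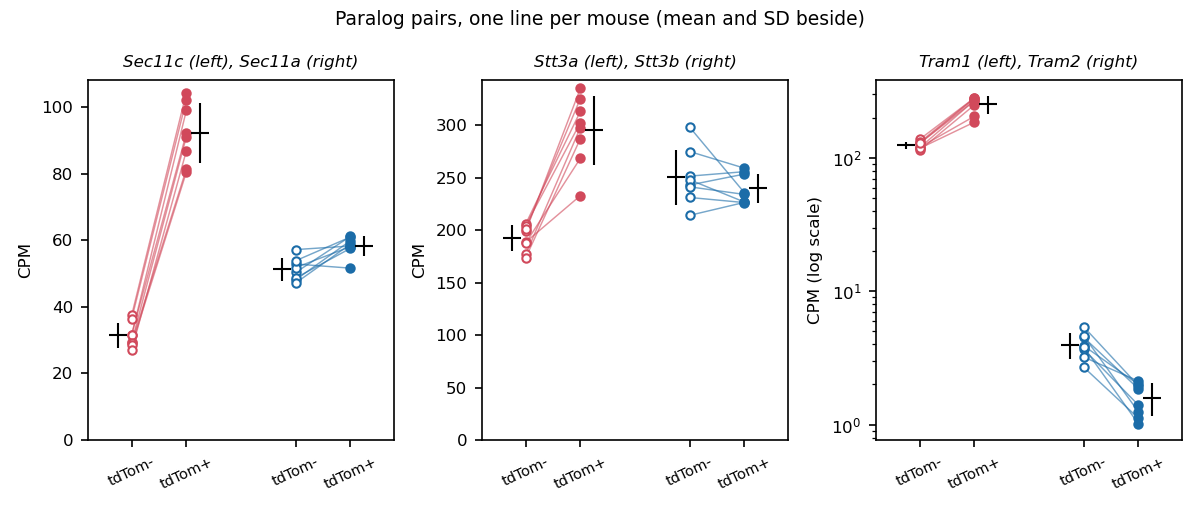
CPM of both genes of the 3 paralog pairs (y axis, log scale for Tram1 and Tram2) in the tdTom- and tdTom+ library of each mouse, joined by a line. Means and SD stand beside the points. The lines of Sec11c, Stt3a and Tram1 rise in 8 of 8 mice, and those of Tram2 fall in 8 of 8. Lines of Sec11a rise in 7 of 8 mice, and those of Stt3b rise in 3 of 8 and fall in 5 of 8.

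The rest of the pathway, a list of 62 genes that were all tested, moved in both directions. Of these 23 were higher, 12 were lower and 27 did not pass, with a median log2 fold change of 0.05, beside 25.8% higher and 30.0% lower among all genes. Of the 5 OST subunits not among the 33 genes 4 were higher. The fifth, Ost4, a small subunit of the complex, was lower in 8 of 8 mice without overlap of the groups but did not pass (-0.19 ± 0.06, SE, adjusted p = 0.0117). Tusc3 and Magt1 encode alternative subunits of the STT3B form of the enzyme. Tusc3 ranged from 7.54 to 12.2 CPM in tdTom- and from 21.2 to 28.4 CPM in tdTom+ libraries (log2 fold change 1.21 ± 0.10, SE, adjusted p = 1.7e-07), without overlap. Magt1 was more abundant and rose by 0.22 ± 0.06 (SE, adjusted p = 0.00705) in 7 of 8 mice. Krtcap2, a subunit of the STT3A form, ranged from 21.1 to 33.4 CPM in tdTom- and from 49.2 to 60.8 CPM in tdTom+ libraries (1.07 ± 0.07, adjusted p = 1.2e-08). Genes tied to either form of OST were thus among those that rose.

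Srpr, the GTPase subunit of the SRP receptor that binds SRP, ranged from 74.1 to 88.2 CPM in tdTom- and from 124.8 to 187.4 CPM in tdTom+ libraries, and its log2 fold change was 0.99 ± 0.07 (SE, adjusted p = 2.4e-08). Both receptor subunits were therefore higher, in 8 of 8 mice each. The SRP54 genes Srp54a and Srp54c rose by 0.39 ± 0.06 and 0.40 ± 0.07, and are near-identical copies between which reads may be divided. H13, the signal peptide peptidase that cuts signal peptides left in the membrane, ranged from 63.5 to 82.9 CPM in tdTom- and from 113.2 to 152.6 CPM in tdTom+ libraries (0.92 ± 0.06, adjusted p = 8.6e-09). Ckap4, a protein of ER sheets, had the largest change of the wider list, from 1.79 to 9.52 CPM in tdTom- to 15.6 to 30.5 CPM in tdTom+ libraries (2.78 ± 0.18, adjusted p = 1.2e-08).

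The 10 other genes listed under the translocon went both ways, with 3 higher, 3 lower and 4 not passed. The list takes in Ckap4 and H13, described above, which are not subunits of the channel. Among all genes 25.8% were higher and 30.0% lower. Besides Ckap4 and H13, Rrbp1 was higher (log2 fold change 0.26 ± 0.08, SE, adjusted p = 0.00737 in the edgeR test), in 7 of 8 mice. Ncln and Nomo1 encode proteins of a complex that joins SEC61 for multipass membrane proteins. Ncln ranged from 136.1 to 177.5 CPM in tdTom- and from 78.0 to 93.7 CPM in tdTom+ libraries (log2 fold change -0.85 ± 0.05, SE, adjusted p = 2.9e-09). Nomo1 ranged from 244.0 to 369.7 CPM in tdTom- and from 135.5 to 189.5 CPM in tdTom+ libraries (-0.83 ± 0.06, adjusted p = 4.8e-08). Neither gene had overlapping groups, and both were lower in 8 of 8 mice. The minor channel gene Sec61a2 also fell, by 0.41 on the log2 scale (SE 0.09, adjusted p = 0.00122), while Ccdc47, Tmem147, Tmco1 and Tmem208 did not pass.

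Of the 21 other genes of dolichol and glycan assembly 10 were higher, 3 were lower and 8 did not pass, again beside 25.8% and 30.0% of all genes. Dpagt1, the enzyme of the first step, rose by 0.89 ± 0.06 (adjusted p = 2e-08), from 27.4 CPM to 50.8 CPM in the mean of 8 libraries. Genes for the lipid carrier itself went both ways. Dolpp1, a phosphatase that recycles dolichol, ranged from 50.9 to 62.2 CPM in tdTom- and from 30.3 to 40.6 CPM in tdTom+ libraries (-0.68 ± 0.05, adjusted p = 2.4e-08). Dolk, the dolichol kinase, ranged from 17.0 to 21.2 CPM in tdTom- and from 10.2 to 15.3 CPM in tdTom+ libraries (-0.61 ± 0.07, adjusted p = 3.4e-06). Dhdds, a subunit of the enzyme that builds the chain of dolichol, rose by 0.56 ± 0.06 (adjusted p = 1.8e-06), and Srd5a3, the reductase of the last step to dolichol, rose by 0.45 ± 0.07 (adjusted p = 5.2e-05), each in 8 of 8 mice without overlap of the groups. Nus1, the partner subunit of Dhdds, did not pass (0.13 ± 0.05, adjusted p = 0.0426). Among the other trimming genes Uggt1, the glucosyltransferase that checks folding, rose by 0.74 ± 0.06 (adjusted p = 1.6e-07), and the other 3 did not pass.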

How the data were processed

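Poly(A) RNA of 8 tdTom+ and 8 tdTom- samples was sequenced from stranded libraries (RNeasy Micro Plus, TruSeq Stranded mRNA). Per the submitters' notes, reads were aligned to GRCm38.p3 with TopHat2 2.1.1, and Subread 1.5.2 and DESeq2 1.14.1 were used. The authors deposited raw, unnormalised counts per Ensembl gene. Per the file headers these were made with featureCounts 1.5.0-p1 over exons, on the reverse strand and from primary alignments. A read that maps to several places is counted once at its primary alignment, so counts of near-identical copies are uncertain.

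Groups were taken from the group label and mice from the number in the title. Per the series design, each of the 8 mice gave both fractions. Same-mouse libraries deviated together from their group means (mean r = 0.426, lowest 0.245, highest 0.634, against a mean of -0.0569 between mice), and 8 of 8 matched their own mouse best. The labels give no sequencing batch.

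Symbols came from GENCODE M21 and matched 44585 of 45513 identifiers, including all 33 genes. In R 4.3.3, genes passing filterByExpr (15323) were fitted with edgeR 4.0.16 (TMM factors, quasi-likelihood F-test, mouse as a block), with Benjamini-Hochberg adjustment and a threshold of 0.01. The SE is the log2 fold change over the square root of F. CPM is the count divided by the TMM-scaled library total. Ratios within a mouse or a library used a pseudocount of 0.5 counts. Paralog ratios were tested by an exact two-sided sign-flip test. Promoters were those of RefSeq (250 bases before to 50 after the start). Stretches of 50 bases shared between transcripts were counted in GENCODE M21. The fit was tested on simulated counts with few changed genes, in equal numbers up and down, and no mouse effect. That setting tests neither the mouse block nor the scaling under a shift as wide as here.

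Values in full were given, by rule, for the genes with the largest and smallest change in each of 5 groups, for the paralog pairs, for the 5 largest and 5 smallest called changes of the wider pathway list, and for Atoh1. Other genes named from the members or that list were chosen after their values were seen. The 33 genes, the lists and the markers were chosen with earlier results of these data known. Alternatives were relative log expression or total counts scaling, DESeq2 1.42.0 (block kept or dropped), TMM without the 10 most counted genes, limma-voom (limma 3.58.1), no block, removal of the trend with gene length, other filters and thresholds, and leaving out each mouse.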

Additional observations from a re-analysis of the deposited data

Results flagged for a closer look

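Of 66 sets of 8 values (33 genes in each fraction), 5 had a library apart from the others by Dixon's test on log2 CPM, all on the low side of tdTom+ libraries, where chance alone flags about 1 in 20 sets, or 3.3. On the CPM scale the test set apart only 1 of the 66, Sec11a in tdTom+ libraries, and the gap over range of the other 4 was 0.485 to 0.516. The ratios that follow are on the log2 scale. Sec61b in mouse 6 was at 54.7 CPM against 63.5 to 72.1 CPM in the other 7 libraries (gap over range 0.537). Ssr4 in mouse 6 was at 113.5 CPM against 126.9 to 139.5 CPM (0.540). Spcs2 in mouse 5 was at 106.3 CPM against 121.7 to 136.9 CPM (0.537), and Spcs3 in mouse 5 was at 101.5 CPM against 124.9 to 149.7 CPM (0.535). Sec11a in mouse 4 was at 51.6 CPM against 57.5 to 61.1 CPM (0.641). For Sec61b, Ssr4, Spcs2 and Spcs3 the low library still lay above every tdTom- library of the same gene, and for Sec11a it did not.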

How the results depend on the processing

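Across the other scalings, filters, tests and left-out mice, between 28 and 30 of the 33 genes were higher and 1 was lower at a threshold of 0.01. With a log2 fold change of at least 1 also required, 4 of the 33 genes were higher (0 in signal recognition, 2 in the translocon, 2 in signal peptidase, 0 in OST and 0 in glycan assembly and trimming), and over all genes 1740 were higher and 1758 lower. Both translocon genes, Ssr4 and Tram1 (1.01 each), lay at this cut and fell below it with total counts scaling (0.947 and 0.942). Srp14 (0.947) went above it with the length trend removed (1.08). Without the replicate block (no pairing by mouse) 7606 genes passed in place of 8556, and 29 of the 33 genes were higher and 1 lower, as with it. The sign of Stt3b and Ganab, neither of which passed, turned with at least 10 counts in every library (0.0613 and 0.0660) and without mouse 3 (0.0282 and 0.0476). With each mouse left out in turn, Stt3b ranged from -0.0757 to 0.0282 and Ganab from -0.0667 to 0.0476. Under these settings the median of all genes moved from 0.02 to 0.12 in both, and the share of calls that were higher from 46.2% to 57.0% and 55.5%. For the translocon the mean over genes was 0.516 in place of the median of 0.65. The difference in the share of counts was 0.249 percentage points without the 10 most counted genes. Of the values of single genes under alternatives, 579 kept their direction and side of the threshold, 7 lost it (all for Sec11a), 4 gained it (all for Sec63) and 4 turned sign. The cause of these changes was not tested. Depth limits Tram2 most.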

Other observations

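Routes into the ER membrane that bypass the signal recognition particle were read from the same fit. Of 7 genes of tail anchor insertion, which places proteins with a membrane anchor at their end, 1 was higher (Wrb, the receptor subunit also called GET1, log2 fold change 0.55 ± 0.10, adjusted p = 2.3e-04 in the edgeR test) and 3 were lower, and 3 did not pass, beside 25.8% of all genes higher and 30.0% lower. The lower ones were Sgta, Bag6 and Get4, which hand tail-anchored proteins on in the cytosol. Sgta went from 80.6 CPM to 58.0 CPM in the mean of 8 libraries (-0.48 ± 0.04, adjusted p = 5e-07), Bag6 from 161.0 CPM to 129.9 CPM and Get4 from 35.8 CPM to 29.2 CPM, each lower in 8 of 8 mice without overlap of the groups.

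Of 10 genes of the ER membrane complex, an insertase for membrane proteins, 1 was higher (Emc7, 0.32 ± 0.05), 3 were lower (Emc2, Emc3 and Emc9) and 6 did not pass, a share lower that is the same as the 30.0% of all genes. Emc9 ranged from 10.4 to 15.0 CPM in tdTom- and from 3.06 to 6.22 CPM in tdTom+ libraries (-1.72 ± 0.11, SE, adjusted p = 6.9e-09), and was the most strongly lowered gene of the wider pathway list. Its paralog Emc8 had means of 17.5 CPM (tdTom-) and 16.3 CPM (tdTom+) and did not pass (-0.09 ± 0.08, adjusted p = 0.357). Whether these lists differ from the 33 genes was not tested.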
